A study of Mus musculus with 12 samples.

Results

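Kinesins are motor proteins that use ATP to move along microtubules or to take apart their ends. Mitotic kinesins build the spindle, move chromosomes and complete division of the cell, and many of their genes are active in the last phases of the cell cycle. Transport kinesins carry vesicles, mitochondria and receptors, and several of them are abundant in neurons, where cargo travels along axons and dendrites. The genes described here are those whose symbol is Kif followed by a number and an optional letter a to c, or Kifc1 to Kifc3. They were 41 of 43309 features in the day 5 table and 40 of 42802 in the day 9 table, with Kif28 listed at day 5 only. By their textbook roles, 13 were placed in a mitotic class, 17 in a transport class and 11 in the remaining class of ciliary, signalling and mixed-role kinesins.

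RNA was sequenced from cultured mouse neural progenitor cells of the C57BL/6 strain, dividing cells that can give rise to neurons and glia, kept in 10 ng/ml each of EGF and FGF-2. The cKO groups carried loxP-flanked lamin B1 alleles (LaminB1fl/fl) and the WT groups unaltered alleles (LaminB1+/+). Every group, WT included, carried the Ai3 reporter, in which Cre switches on EYFP, and received a lentivirus with Cre driven by a Sox2 promoter (pSox2-Cre). EYFP-positive cells were sorted 5 or 9 days later, which gave 4 groups of 3 libraries. The cells in each library are therefore those in which the Sox2 promoter had made enough Cre to recombine the reporter. The labels leave the origin of the replicates unstated, in cultures or animals, so p-values reflect the spread among these libraries alone, and that spread may be technical.

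Library totals ranged from 26720476 to 32127629 counts at day 5 and from 13315273 to 24662809 at day 9. Lmnb1, the targeted gene, was at 247 to 288 CPM, the count scaled to library size after TMM normalisation, in WT and at 37.8 to 45.0 CPM in cKO at day 5. At day 9 it was at 156 to 210 CPM in WT against 32.8 to 39.4 in cKO, far below the WT libraries at both days, as the labels say. At day 9 the progenitor marker Sox2 was at 215 to 274 CPM in WT and 248.6 to 285 CPM in cKO. Of 10 progenitor markers 6 were called lower in cKO, Nes among them (302 CPM on average in WT and 77.1 in cKO). Pax6 and Prom1, 2 of the 10, were called higher. Over all features tested, 22.6% were called lower and 21% higher. A group of 15 structural RNA features took 72.2% and 71.0% of the counts in cKO replicates 1 and 3 at day 9, 0.362% in cKO replicate 2 and 15.9% to 34.9% in WT. At day 5 the same features took 14.4% in cKO replicate 2 and 0.0744% (WT replicate 1) to 0.508% in the other libraries. WT replicate 1 and cKO replicate 2 of day 5 stood apart from the other day 5 libraries, as described below.

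Promoter letters are shown first, since they describe the genes independently of the RNA counts. The cell cycle genes homology region, CHR, is an element found in many promoters of genes active before and during mitosis, where it is bound by complexes that hold these genes silent in resting cells, and it often lies near a CCAAT box. RefSeq promoter windows of the GRCm38.p6 build, from 250 bases before to 50 bases after the annotated start, were at hand for 32 of the 41 kinesins. They were searched on both strands for the CHR core TTTGAA (reverse complement TTCAAA) and for the CCAAT box, CCAAT (reverse complement ATTGG), each counted separately whether or not matches overlapped. CHR letters were found in 10 of 12 mitotic genes, 1 of 11 transport genes and 2 of 9 genes of the third class, against 20.2% of 27025 genes in the table. CCAAT letters were found in 8 of 12 mitotic, 3 of 11 transport and 4 of 9 other genes, against 41.1% of all genes. Both motifs together were present in 7 of 12 mitotic genes, 0 of 11 transport genes and 2 of 9 others, against 7.97% of all genes.

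The following stretches show a CHR match in each of the 10 mitotic kinesins, 5′ to 3′ on the gene's strand, with the matching letters in capitals.
Kif22 (chr7:127042422-127042447, minus strand): gccccggtaaTTCAAAagagagaagc
Kif2c (chr4:117178860-117178885, minus strand): aggctgctctTTCAAAcctgagtaat
Kifc1 (chr17:33890617-33890642, minus strand): gaggttgaaaTTCAAAagtggcgggt
Kif18b (chr11:102925106-102925131, minus strand): gaccggctagTTTGAAcgcgccgcgc
Kif4 (chrX:100626074-100626099, plus strand): ctgggatcaaTTTGAAacttggcggt
Kif23 (chr9:61946782-61946807, minus strand): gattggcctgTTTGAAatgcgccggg
Kif14 (chr1:136467610-136467635, plus strand): aggtcctgtcTTTGAAgtctgcagtg
Kif11 (chr19:37376353-37376378, plus strand): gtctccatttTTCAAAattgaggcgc
Kif15 (chr9:122951052-122951077, plus strand): gggcgccaaaTTCAAAtctgcggcca
Kif20b (chr19:34922355-34922380, plus strand): gccgccattgTTTGAAtttgaaaacc

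Counting the annotated start as base 1, the first matching base lay 17 bases before it in Kif22, 19 before it in Kif11 and Kif15, and 103 and 228 before it in Kif2c and Kif14. It was base 2 in Kifc1, 3 in Kif23, 4 in Kif18b, 8 in Kif20b and 20 in Kif4, inside the transcribed part. Kif20b has a second copy directly after the first. The mitotic genes without these letters in the window were Kif18a and Kif2b. The transport gene with a match was Kif1a, in the second of its RefSeq windows (chr1:93082509-93082534, minus strand), with the stretch tgacagcctcTTTGAAcattgctcct. A match is a string of letters and was not tested as a binding site.

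To set a mitotic promoter beside a transport promoter, the 250 bases before the start are given for Kif18b, with its CCAAT letters in capitals, and for Kif5c, which has neither motif in its window.
Kif18b (chr11:102925125-102925374, minus strand): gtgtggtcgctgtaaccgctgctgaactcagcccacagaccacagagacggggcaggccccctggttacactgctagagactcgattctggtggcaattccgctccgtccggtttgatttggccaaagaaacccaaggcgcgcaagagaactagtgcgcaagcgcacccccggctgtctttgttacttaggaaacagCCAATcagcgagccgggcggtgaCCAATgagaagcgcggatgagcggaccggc
Kif5c (chr2:49619036-49619285, plus strand): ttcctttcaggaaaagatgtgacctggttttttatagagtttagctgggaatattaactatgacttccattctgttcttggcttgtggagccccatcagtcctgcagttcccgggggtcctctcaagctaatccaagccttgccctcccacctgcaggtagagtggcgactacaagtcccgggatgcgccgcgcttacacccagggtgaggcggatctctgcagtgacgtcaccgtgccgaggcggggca
The Kif18b CCAAT boxes begin 30 and 53 bases before the start, and its CHR letters follow just after the start. At day 9 Kif18b fell in cKO and Kif5c rose, as given below, but 1 pair does not tie letters to direction. CHR letters were found in all 7 mitotic genes with a window that fell. They were also found in Kif11, Kif15 and Kif20b, which were not called. Kif1a, with CHR letters, rose, as did Kif1b and Kif3a, with CCAAT letters. Kif26b of the third class, with both motifs in its window, rose too. A link between letters and direction was not tested.

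The day 5 comparison asks whether kinesin RNA differed 5 days after Cre was delivered. No difference was detected in any kinesin. Of 37 kinesins that passed the filter on low counts, 0 were called by edgeR's quasi-likelihood test at a Benjamini-Hochberg adjusted p under 0.05, and every adjusted p was 0.9999. Across all 14849 features tested the share called was 0.00673%, which is Lmnb1 alone, and DESeq2 called 9 features and again 0 kinesins. At an unadjusted p under 0.05 there were 0 kinesins and 89 features of all. The median log2 fold change (cKO minus WT, here and throughout) was 0.13 over 12 mitotic motors, 0.06 over 17 transport motors and -0.06 over 8 others, beside 0.01 over all features tested. Kif20a was the only kinesin whose groups did not overlap, with cKO above WT, which held for 1.5% of all features tested, and 0 kinesins lay below WT, against 1.35%. It was at 113, 108 and 112 CPM in WT against 127, 117 and 133 in cKO. Kif2b, Kif12, Kif27 and Kif28 did not pass the filter, and Kif2b and Kif12 had 0 counts in all 12 libraries where they were listed.

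For several kinesins the day 5 replicates of a group differed widely. Kif11, the motor that pushes spindle poles apart, was at 215 CPM in WT replicate 1 and at 60.1 and 61.8 CPM in replicates 2 and 3. In cKO it was at 254 CPM in replicate 2 and at 56.8 and 61.8 CPM in replicates 1 and 3. Kif5b, the heavy chain of conventional kinesin found in most tissues, was at 219, 61.7 and 48.3 CPM in WT against 54.1, 275 and 42.9 in cKO. Kif20b, a motor of late division, was at 41.2, 6.34 and 3.96 CPM in WT against 4.53, 32.5 and 2.98 in cKO. The same libraries were high for all 3 genes, which were chosen after their values were seen and which come from both classes.

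These kinesins shared a low content of G and C bases. Transcript GC content was 42.2% for Kif11, 41.1% for Kif5b and 39.4% for Kif20b, and the 37 tested kinesins ranged up to 61.7%. Over these 37 genes, each library's deviation from the other 2 of its group correlated with GC content at -0.87 in WT replicate 1 and -0.89 in cKO replicate 2. In the other 4 libraries it was between 0.81 and 0.82, but since each deviation is taken from the rest of the group, a library that slopes down makes the others of its group slope up. Over 13150 features with an annotated coding transcript the coefficient was -0.76 and -0.71 in the same 2 libraries. These are descriptions across genes that share a library. The 12 kinesins under 48% GC, a limit set after the values were seen, had a median deviation of 1.64 and 1.90 on the log2 scale in those 2 libraries. Kinesins rich in G and C moved slightly the other way: Kif22 was at 112, 160 and 153 CPM in WT against 175, 96.4 and 141 in cKO. With both libraries left out, 0 kinesins were called among 19 features, and with the GC trend removed from each library 0 were called among 0.

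**Figure D1:**
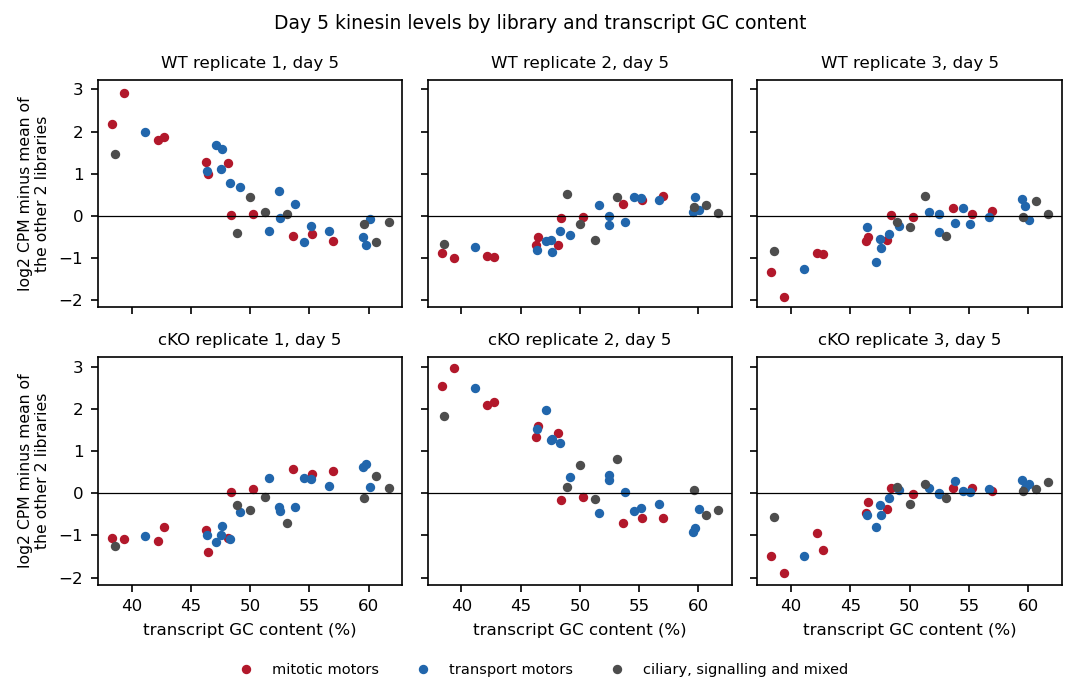
Each point is 1 of 37 kinesin genes in 1 day 5 library, with transcript GC content (%) across and the library's log2 CPM minus the mean of the other libraries of its group up. WT replicate 1 and cKO replicate 2 slope down, with correlations of -0.87 and -0.89, and the other 4 slope up, at 0.81 to 0.82, which the centring within each group itself brings about.

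The kinesin classes differed at day 9. Of 12 mitotic motors tested, 8 fell in cKO and 0 rose, with a median log2 fold change of -2.36. Of 17 transport motors, 8 rose and 3 fell, with a median of 0.24. Of 8 kinesins of the third class, 4 rose and 0 fell, with a median of 1.09. Over all 14617 features tested, 43.6% were called, 21% as higher and 22.6% as lower, and the median was 0.01. The mitotic share of calls thus lay above the background of lower calls, whereas the transport counts are 8 and 3 of 17 beside backgrounds of 21% and 22.6%. Groups did not overlap, with cKO below WT, in 8 mitotic motors, 3 transport motors and 1 of the third class, against 30.2% of all features, and with cKO above WT in 10 transport motors and 5 of the third class, against 27.6%, counting tested kinesins only. In bulk RNA, fewer cells of a type and less RNA per cell cannot be told apart.

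**Figure D2:**
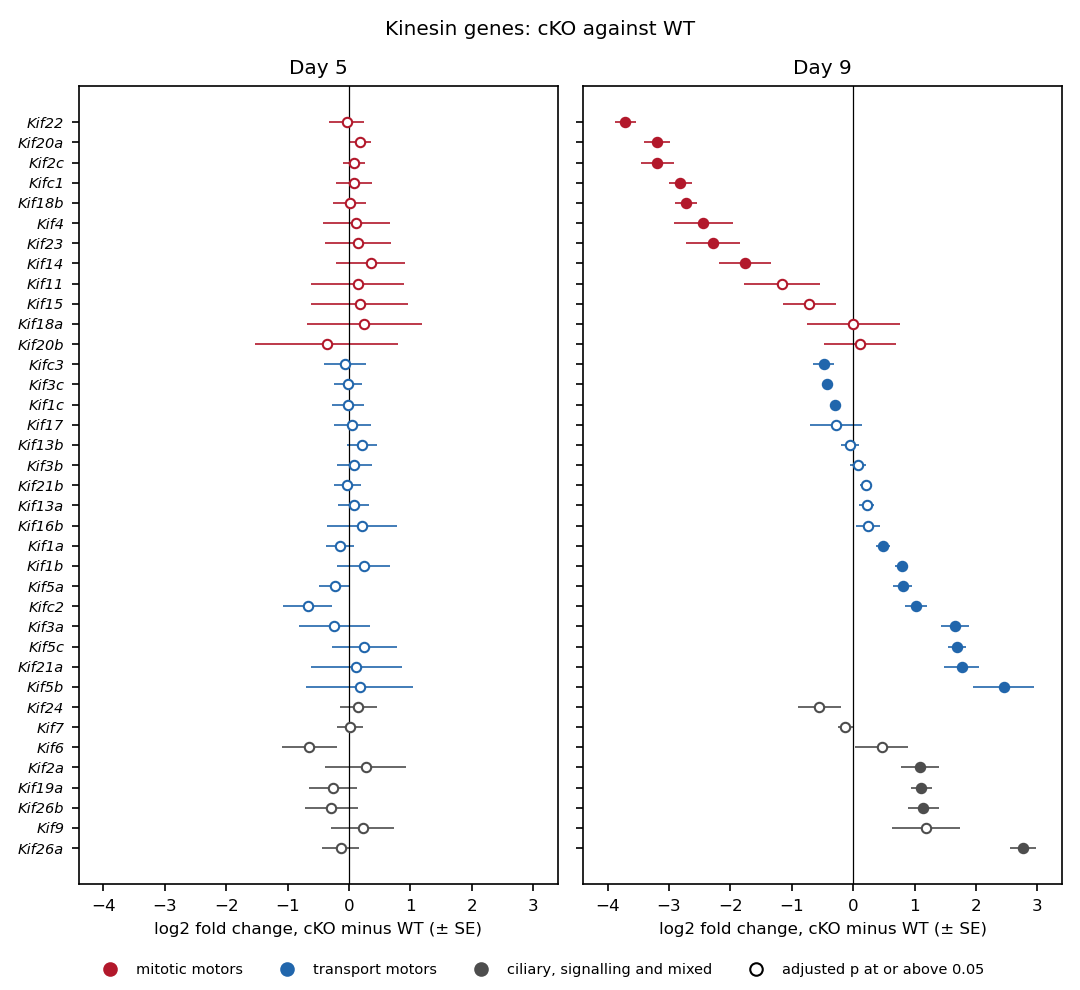
Points are log2 fold changes (cKO minus WT) with standard errors for the 37 tested kinesins at day 5 (left) and day 9 (right), and filled points have an edgeR adjusted p under 0.05. No point is filled at day 5, and at day 9 the filled mitotic motors run from -3.71 to -1.76 and the filled transport motors from -0.48 to 2.45.

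Motors of chromosomes, centromeres and spindle poles were among those that fell. Kif22, a chromokinesin that pushes chromosome arms away from the poles (chr7:127027729-127042471, mm10), was at 50.9, 57.8 and 47.9 CPM in WT against 3.12, 4.38 and 4.22 in cKO. Every cKO library lay far below every WT library, and the fall was 13.4-fold (-3.71 ± 0.17 as log2 fold change with SE, over 3 libraries per group; edgeR adjusted p = 7.12e-06). Brackets after later genes give the same quantities. Kif2c, which takes apart microtubule ends at centromeres, was at 33.1, 46.7 and 37.6 CPM in WT against 2.96, 3.82 and 6.19 in cKO. It fell 9.05-fold (-3.19 ± 0.27; edgeR adjusted p = 0.000138), with cKO replicate 3 the highest of its group. Kifc1, a motor that moves toward minus ends and focuses spindle poles, was at 35.0, 38.6 and 35.3 CPM in WT against 4.37, 4.53 and 6.75 in cKO. Its fall was 6.96-fold (-2.82 ± 0.18; edgeR adjusted p = 2.67e-05). Kif18b, which shortens astral microtubules, was at 29.7, 33.3 and 30.5 CPM in WT against 4.37, 4.02 and 6.05 in cKO, and it fell 6.48-fold (-2.72 ± 0.18; edgeR adjusted p = 2.52e-05). In all 4 genes the WT and cKO libraries did not overlap.

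Motors of the midzone, the antiparallel microtubules between separating chromosomes, fell as well. Kif20a, which carries the chromosomal passenger complex there, was at 46.3, 63.3 and 50.3 CPM in WT against 5.14, 5.00 and 7.60 in cKO. It fell 9.01-fold (-3.19 ± 0.21; edgeR adjusted p = 2.67e-05). Kif23, the motor subunit of centralspindlin, was at 6.78, 6.74 and 3.08 CPM in WT against 0.468, 1.41 and 1.27 in cKO. WT replicate 3 held less than its group, yet all cKO libraries lay below it, and the fall was 5.28-fold (-2.28 ± 0.44; edgeR adjusted p = 0.00541). Kif4 and Kif14, which act with the midzone bundler Prc1 and in the last cut between daughter cells, fell by 2.44 ± 0.48 and 1.76 ± 0.42 on the log2 scale (edgeR adjusted p = 0.00833 and 0.0139). The counts behind Kif23 were low, from 3 to 240 a library. Kif14 passed with all libraries and missed without WT replicate 2 (adjusted p = 0.0548). With cKO replicates 1 and 3 both left out, the log2 fold changes of Kif23 and Kif4 were -2.004 and -2.04. That fit keeps only 1 cKO library, so it has no spread within cKO.

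The 4 mitotic motors that did not pass all had low GC content. Kif11 was at 16.2, 6.88 and 3.43 CPM in WT against 4.83, 2.79 and 4.64 in cKO, so the groups overlapped and the WT libraries spread widely (-1.16 ± 0.62; edgeR adjusted p = 0.172). Without WT replicate 3 it passed at -1.56 (adjusted p = 0.0333), and with the GC trend removed at -1.67 (adjusted p = 0.0297). Kif15, which works beside Kif11 in the spindle, was at 2.49, 1.54 and 0.931 CPM in WT against 1.09, 1.06 and 0.844 in cKO (-0.71 ± 0.43; adjusted p = 0.201), and it passed at -1.16 with the GC trend removed (adjusted p = 0.0274). Kif18a, which damps chromosome movements, and Kif20b had log2 fold changes of 0.00 ± 0.76 and 0.11 ± 0.59, on 12 to 51 and 6 to 23 counts a library. Neither passed (adjusted p = 0.998 and 0.894). GC content was 38.3% to 42.7% in these 4 genes and 46.3% to 57.0% in the 8 that fell, and its part in the result was tested only by the removal of the trend, which gave 10 mitotic motors lower. Kif2b had 0 counts. Reads of Kifc1 may be shared with its near copy Kifc5b, which held 480 to 973 counts a library at day 5 and 6.18 to 313 at day 9, so the Kifc1 level is uncertain. Kif20a and Kif4 share exon bases with genes on the other strand, Cdc23 over 1271 bases and Pdzd11 over 832, and strand use is not given in the sources used here.

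**Figure D3:**
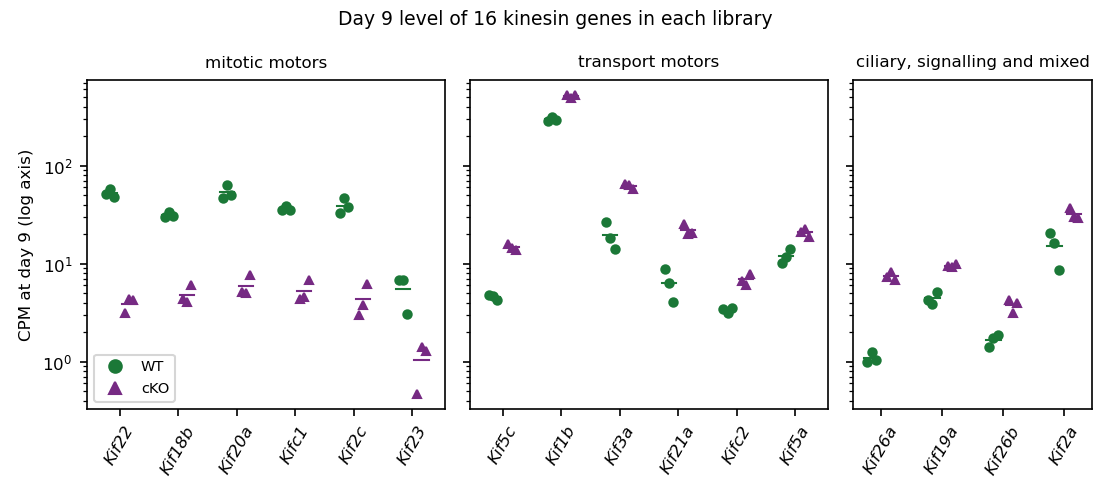
Each symbol is the day 9 level of a gene in 1 library, in CPM on a log axis, with WT as circles, cKO as triangles and a line at each group's mean. Shown are the 6 mitotic, 6 transport and 4 other kinesins with the smallest adjusted p. In each of the 16 genes the WT and cKO libraries do not overlap, with cKO lower in the mitotic panel and higher in the other panels.

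Among transport motors the rise included heavy chains of conventional kinesin, which carries vesicles and mitochondria. Kif5c, the form abundant in neurons, was at 4.78, 4.63 and 4.28 CPM in WT against 15.9, 14.5 and 13.8 in cKO. It rose 3.23-fold (1.69 ± 0.14; edgeR adjusted p = 8.58e-05), with little spread in either group. Kif5a, another neuronal heavy chain, was at 10.1, 11.6 and 14.2 CPM in WT against 21.04, 22.6 and 18.7 in cKO, and it rose 1.74-fold (0.81 ± 0.16; edgeR adjusted p = 0.00535). Kif5b had the largest rise of the transport class, from 13.9, 7.10 and 3.81 CPM in WT to 52.4, 33.8 and 50.1 CPM in cKO (2.45 ± 0.50; edgeR adjusted p = 0.0123), and was chosen for mention after its values were seen. Its WT libraries spread widely, and without WT replicate 2 it missed the threshold (adjusted p = 0.0519).

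Other long-range transporters rose with them. Kif1b, which moves mitochondria and synaptic vesicle precursors, was at 284, 317 and 291 CPM in WT against 524, 487 and 527 in cKO. It rose 1.73-fold (0.79 ± 0.11; edgeR adjusted p = 0.000869). Kif3a, a subunit of the heterotrimeric kinesin of cilia and axons, was at 26.6, 18.2 and 13.96 CPM in WT against 64.7, 63.5 and 57.7 in cKO, and rose 3.17-fold (1.66 ± 0.23; edgeR adjusted p = 0.00143). Kif21a, a neuronal motor that also slows microtubule growth, was at 8.87, 6.35 and 4.01 CPM in WT against 25.1, 19.97 and 20.5 in cKO. The rise was 3.41-fold (1.76 ± 0.28; edgeR adjusted p = 0.00296). Kifc2, a motor of the C-terminal type found in neurites, was at 3.42, 3.16 and 3.52 CPM in WT against 6.70, 6.09 and 7.88 in cKO, and rose 2.05-fold (1.02 ± 0.18; edgeR adjusted p = 0.0037). Kif1a, the carrier of synaptic vesicle precursors, rose by 0.48 ± 0.11 on the log2 scale (adjusted p = 0.0121) and missed without WT replicate 1 (adjusted p = 0.0562).

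The 3 transport motors that fell did so by small amounts. Kif3c, which pairs with Kif3a, was at 101, 111 and 110 CPM in WT against 80.6, 79.2 and 80.2 in cKO (-0.43 ± 0.09; edgeR adjusted p = 0.00677), so it fell while its partner rose. Kif1c, a carrier of dense-core vesicles and integrins, was at 113, 112 and 119 CPM in WT against 89.8, 94.6 and 97.0 in cKO (-0.29 ± 0.09; edgeR adjusted p = 0.0303). Kifc3, a motor toward minus ends at cell junctions and the Golgi, was at 16.8, 16.5 and 17.5 CPM in WT against 9.51, 12.04 and 14.8 in cKO (-0.48 ± 0.17; edgeR adjusted p = 0.0444). The groups did not overlap in any of the 3 genes. Kif1c and Kifc3 each missed the threshold in 5 of the 6 fits that left out 1 library, with adjusted p up to 0.110 and 0.137, and both missed with the GC trend removed (-0.04 and -0.26; adjusted p = 0.674 and 0.182). Kif3c shares 2617 exon bases with 1110002L01Rik on the other strand. The 6 transport motors that did not pass, Kif13a, Kif13b, Kif16b, Kif17, Kif21b and Kif3b, had log2 fold changes from -0.29 to 0.24.

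Calls of transport motors differed between fits on counts and fits on the deposited TPM. In cKO the deposited TPM spread more widely: Kif1a was at 48.3, 260 and 53.6 TPM in replicates 1 to 3, against 690, 631 and 713 CPM. The part of structural RNA in this spread was not tested. With limma on log2(TPM + 1), where the median of all features itself moved by -0.79 on the log2 scale, 8 mitotic motors were called lower, and transport motors were 0 higher and 0 lower. With that common shift subtracted, the 8 ranged from -3.32 (Kif22) to -0.23 (Kif14). For Kif14 the shift was larger than the change that remained, so its call in this setting rests largely on the shift. Leaving out cKO replicates 1 and 3, the libraries dominated by structural RNA, keeps only 1 cKO library. That fit has no spread within cKO, so its counts of calls are not given. It is among the alternatives in the tally of single-gene values at the end.

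In the third class the largest rise was that of Kif26a, a kinesin that lacks motor activity and restrains growth factor signalling in enteric neurons (chr12:112146208-112181747, mm10). It was at 0.989, 1.26 and 1.05 CPM in WT against 7.33, 8.20 and 6.75 in cKO, a rise of 6.77-fold (2.76 ± 0.21; edgeR adjusted p = 5.79e-05). Kif26b, its relative in Wnt5a signalling, was at 1.41, 1.76 and 1.86 CPM in WT against 4.21, 3.12 and 3.94 in cKO (1.14 ± 0.26; edgeR adjusted p = 0.00929), and it shares 909 exon bases with the antisense gene Gm16564. Kif19a, which limits the length of motile cilia, was at 4.24, 3.84 and 5.15 CPM in WT against 9.35, 9.30 and 9.85 in cKO (1.11 ± 0.17; edgeR adjusted p = 0.00177). In these 3 genes all cKO libraries lay above all WT libraries. Kif2a, which takes apart microtubule ends both in spindles and in growing axon branches, was at 20.7, 16.1 and 8.64 CPM in WT against 36.9, 29.9 and 29.5 in cKO (1.08 ± 0.31; edgeR adjusted p = 0.0307). Its call ended in 4 of the 6 fits without 1 library (adjusted p up to 0.0976), and with the GC trend removed its log2 fold change was 0.09 (adjusted p = 0.548). Kif24, Kif6, Kif7 and Kif9 did not pass, with log2 fold changes from -0.55 to 1.18, and Kif12 and Kif27 were not tested.

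The make-up of the kinesin pool can be read within each library from TPM, a unit scaled for transcript length, so that levels of different genes can be set side by side. At day 9 the mitotic class held 28.0%, 29.6% and 25.4% of the summed kinesin TPM in WT and 3.11%, 3.301% and 4.39% in cKO (27.7% ± 2.09 and 3.60% ± 0.69, mean ± SD, n = 3). Transport motors held 66.9%, 65.7% and 70.2% in WT and 89.5%, 89.9% and 88.1% in cKO (67.6% ± 2.30 and 89.2% ± 0.99). The remaining class held 4.74% ± 0.34 in WT and 7.23% ± 0.41 in cKO. The 3 cKO libraries were alike although their structural RNA content was not. Within a library the shares add up to the whole, so a lower share of a class raises the others, and with 3 libraries a group the shares are a description. At day 5 the mitotic class held 42.4%, 43.6% and 45.5% in WT and 47.4%, 41.3% and 45.5% in cKO, with overlapping groups (43.8% ± 1.59 and 44.7% ± 3.15).

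**Figure D4:**
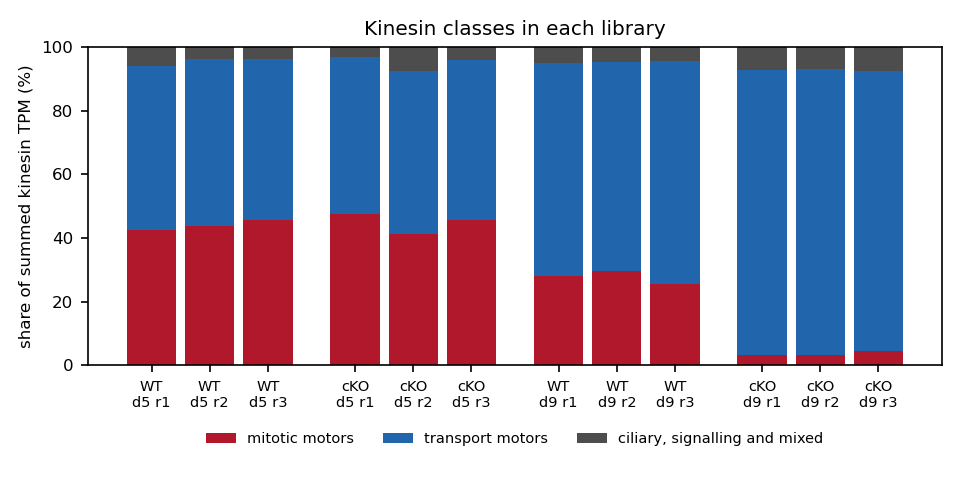
Bars are the 12 libraries by group, day (d) and replicate (r), and colours show the percent of summed kinesin TPM held by each class. The mitotic part is 41.3% to 47.4% in the 6 day 5 libraries, 25.4% to 29.6% in WT at day 9 and 3.11% to 4.39% in cKO at day 9.

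Single genes took different places in that pool. In WT at day 9 Kif1a led with 20.2% of kinesin TPM on average (19.3% to 22.0% over the 3 libraries), before Kif1b with 11.3% and Kif21b with 9.14%, and Kif22 followed with 7.88%. The ranges of Kif21b and Kif22 did not touch (8.59% to 9.56% and 7.31% to 8.34%). In cKO at day 9 the first 3 were again Kif1a with 26.7%, Kif1b with 18.7% and Kif21b with 9.97%, followed by Kif3a with 7.24%. No mitotic motor was among the 6 highest there. At day 5 the highest averages in WT were those of Kif1a with 11.9%, Kif22 with 11.4% and Kifc1 with 8.12%, whose ranges overlapped. The order differed between libraries. Kif5b was highest in WT replicate 1 (117 TPM, Kif1a 111), Kif1a in replicate 2 (132 TPM) and Kif22 in replicate 3 (106 TPM, Kif1a 93.5). The days come from separate tables, so day and table cannot be told apart in these values.

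Whether the genotype difference itself differed between days was tested by subtracting the day 5 change from the day 9 change, in all 12 libraries, for 38 kinesins. The result was lower for 5 kinesins and higher for 3, beside 7.71% of all 15323 features (5.14% lower and 2.57% higher). The 5 lower were the mitotic motors Kif22, Kif20a, Kif2c, Kifc1 and Kif18b, with differences from -3.68 to -2.72 and edgeR adjusted p from 3.2e-05 to 0.000445. Kif26a was higher by 2.90 ± 0.32 (adjusted p = 0.000287), Kifc2 by 1.70 ± 0.42 (adjusted p = 0.034) and Kif5a by 1.04 ± 0.28 (adjusted p = 0.0441). Kif4, Kif23 and Kif14 had differences of -2.59, -2.44 and -2.09 that did not pass (adjusted p = 0.0899, 0.0979 and 0.166), and Kif5b one of 2.27 (adjusted p = 0.314). For Kifc2 and Kif5a the calls ended in 9 and 11 of the 12 fits that left out 1 library. Without cKO replicate 2 of day 5, one of the libraries that stood apart, 8 kinesins were higher and 5 lower, among 2410 features called.

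Most genes that work with the mitotic motors also fell at day 9. Of 18 spindle and midzone partners, 14 fell and 1 rose at day 9, with a median log2 fold change of -2.53. Over all features tested, 22.6% were called lower and 21% higher. Plk1, the kinase that docks on Kif20a, was at 55.9, 64.0 and 53.7 CPM in WT against 3.74, 3.998 and 3.94 in cKO (-3.89 ± 0.13; edgeR adjusted p = 4.81e-06). Racgap1, the partner of Kif23 in centralspindlin, was at 101, 141 and 111 CPM in WT against 11.2, 14.3 and 13.2 in cKO (-3.17 ± 0.16; edgeR adjusted p = 1.04e-05). Tpx2, which binds Kif11 and activates Aurora A, was at 78.4, 110 and 86.5 CPM in WT against 12.3, 11.1 and 12.5 in cKO (-2.94 ± 0.15; edgeR adjusted p = 1.07e-05). In each of these the groups were far apart. The partner that rose was Ckap5, a microtubule polymerase used in dividing and other cells (1.56 ± 0.42; edgeR adjusted p = 0.0303), and Cenpe, itself a kinesin of the kinetochore with another kind of symbol, had 1.63 ± 0.56 CPM in WT against 1.34 ± 1.46 in cKO (± SD over 3 libraries; adjusted p = 0.709).

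The cargo side of the transport motors showed no such common shift. Of 22 kinesin light chains and cargo adaptors, 1 rose and 3 fell at day 9, with a median of 0.13, beside 21% higher and 22.6% lower over all features. Kifap3, which joins Kif3a and Kif3b to cargo, rose from 34.9, 33.0 and 27.2 CPM in WT to 49.4, 57.7 and 38.3 CPM in cKO (0.62 ± 0.17; edgeR adjusted p = 0.0204). Rhot2, which anchors motors to mitochondria, fell by 0.64 ± 0.11 on the log2 scale and the light chain Klc3 by 1.42 ± 0.32 (edgeR adjusted p = 0.0026 and 0.0093). Of 24 dynein and dynactin genes, which move cargo the opposite way, 5 rose and 6 fell, with a median of 0.07, which is close to the same background shares, so these counts are no result about dynein. Their smallest adjusted p belonged to Nde1, a dynein regulator of dividing progenitors, which fell by 1.14 ± 0.15 (edgeR adjusted p = 0.000727). Dynlt1b, a dynein light chain, fell by 0.86 ± 0.15 and Pafah1b1, the dynein regulator LIS1, rose by 0.93 ± 0.19 (edgeR adjusted p = 0.00304 and 0.00806). At day 5 these 3 lists had 0 calls.

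Markers of cell state moved beside the kinesin classes at day 9. The shares over all features tested were 21% called higher and 22.6% lower. Of 10 proliferation markers, 9 fell and 0 rose, and their summed level was 626 to 861 CPM in WT and 113 to 135 CPM in cKO. Top2a fell, whereas Mki67 did not pass (8.61 ± 2.44 CPM in WT and, in cKO, 7.52 ± 6.25; edgeR adjusted p = 0.807). Of 11 neuronal markers tested, 6 rose, Dcx and Tubb3 among them, and 0 fell, with sums of 344 to 462 CPM in WT and 828 to 897 in cKO. The 5 not called were Elavl4, Snap25, Syt1, Nefl and Gap43. Most of the sum was Map2 (147 CPM on average in WT and 390 in cKO) and Mapt (151 and 280 CPM). Of 10 astrocyte markers 8 rose and 0 fell (1959 to 2279 CPM in WT and 3225 to 3922 in cKO), and of 14 oligodendrocyte lineage markers 10 rose and 4 fell (3039 to 3498 and 4470 to 5553 CPM). The oligodendrocyte sum rests largely on few genes: Gpr17 was at 356 CPM on average in WT and 2021 in cKO. Olig1, among the 4 that fell, was at 1536 and 630 CPM. Progenitor markers had 2 higher and 6 lower of 10 (3052 to 3508 and 1595 to 1728 CPM), and ependymal markers 5 lower of 5 (17.1 to 17.9 and 8.42 to 11.0 CPM). The mural and fibroblast sum was 261 to 298 CPM in WT and 79.6 to 101 in cKO, almost all of it Cspg4, which the oligodendrocyte list holds too. Microglial sums reached at most 2.25 CPM with Aif1 at 0, and endothelial sums at most 3.94 CPM with Cdh5 at 0. The part of these shifts in the kinesin results was not tested.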

How the data were processed

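The authors deposited RSEM expected counts and TPM per gene for 12 libraries, 1 table of each kind per day. The submitters' processing notes list mm10, Bowtie2 and RSEM. Annotation and strandedness are not stated there. Expected counts were rounded and tested on the whole table in R 4.3.3 with edgeR 4.0.16 (filterByExpr, TMM, robust quasi-likelihood fit, Benjamini-Hochberg over all features, threshold 0.05), per day and, for the day difference, over 4 group means. SE is the log2 fold change over the square root of F. Deposited TPM gave class shares and, with limma 3.58.1, alternatives, and DESeq2 1.42.0 was another. Transcript GC content came from the longest coding GENCODE transcript. The procedure was tested on simulated counts that held no GC trend, outlying library or uneven structural RNA, so that test does not cover these traits of the data. Members, classes, lists and alternatives were chosen with earlier results of these data known, and the GC alternatives after seeing the tables. Library values are given for the 6 mitotic, 6 transport and 4 other called kinesins with the smallest adjusted p at day 9, and for called kinesins that moved against their class. Of each companion list the 3 with the smallest adjusted p are named.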

Additional observations from a re-analysis of the deposited data

Results flagged for a closer look

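The difference between the day 9 and day 5 genotype effects passed edgeR's test for 8 kinesins. It was -3.68 on the log2 scale for Kif22, -3.37 for Kif20a, -3.27 for Kif2c, -2.89 for Kifc1 and -2.72 for Kif18b, all mitotic motors whose fall was called at day 9. Their day 5 log2 fold changes lay between -0.04 and 0.18. Kif26a differed by 2.90, Kifc2 by 1.70 and Kif5a by 1.04, from day 5 values of -0.14, -0.67 and -0.23. The 5 mitotic genes and Kif26a passed in every one of the 17 alternatives run for this difference, with adjusted p up to 0.0288. The TPM, limma-voom and GC settings were run within each day only and are not among the 17. Kifc2 passed in 4 of the 17 and Kif5a in 3, with adjusted p up to 0.185 and 0.321.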

How the results depend on the processing

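At day 5 every alternative called 0 kinesins, while features called, 1 in the main test, were 9 with DESeq2, 2 with limma-voom, 3 with TPM plus 0.1 or plus 1, 0 with no TPM filter, no count filter, the GC offset, the replicate block or both, 19 without WT library 1 and cKO library 2, and 0 to 0 leaving out 1 library. At day 9 features called were 3344 without cKO libraries 1 and 3, 687 with TPM plus 0.1, 573 with TPM plus 1, 0 with no TPM filter and 4063 to 7507 leaving out 1 library. Mitotic motors lower (8) were 7 to 9 leaving out 1 library and 0 with no TPM filter. Transport motors higher (8) were 0 in all 3 TPM settings. Transport motors lower (3) were 1 with the GC offset, 0 with the GC offset and replicate block, 0 in the TPM settings and 1 to 2 leaving out 1 library. Others higher (4) were 0, 1 and 0 with TPM plus 0.1, plus 1 and no filter. Relative to the shift of all features, -1.02, -0.79 and -0.15 in these TPM settings, Kif1a turned to -0.46 and Kif1b to -0.14 with no filter, and Kif15 to 0.38 with TPM plus 1. The cause was not tested.

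For the day difference, kinesins higher (3) were 5 with DESeq2, 1 with no count filter, 1 with structural RNA left out and 1 to 8 leaving out 1 library, and features called (1181) were 756 to 2410. With the replicate block the day difference had 322 features and 1 kinesin higher, and day 9 had 5514 features with 8 mitotic motors lower, 8 transport motors higher and 2 lower. Deviations of same-numbered libraries correlated at -0.803, -0.629 and 0.632 at day 5 and 0.0163, -0.2 and -0.0372 at day 9, so the numbers are not taken as pairs. The mitotic share, in the order WT and cKO at day 5, then WT and cKO at day 9, was 28.8%, 29.9%, 13.6% and 1.67% by counts, 47.4%, 48.8%, 30.0% and 7.21% with Kif2a and Kif24 added, and 47.2%, 48.02%, 30.7% and 4.05% without Kif21a, Kif21b and Kif16b. Of single-gene values, 487 kept direction and call, 116 lost the call, 5 gained it and 3 reversed. Several kinesins rest on few day 9 counts, such as Kif9 (4 to 17 a library), Kif20b (6 to 23) and Kif17 (3 to 56).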
